A study of Mus musculus with 14 samples.

Results

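Germline-derived pluripotent stem cells (gPS cells) of the OG2-ROSA background were compared with embryonic stem cells (ESC), over the probes of an Illumina Mouse-8 v2 expression array. The members were the 3 samples labelled as gPS cells from OG2-ROSA and the 2 samples labelled as embryonic stem cells, 5 of the 14 mouse samples of the series. A probe was tested when its detection p-value was under 0.01 on at least 2 of these 5 arrays, which left 10465 of 25697 probes. The gPS OG2-ROSA samples were 3 clonal lines, 1 array each, of strain C57BL6 x 129sv, transgenic for Oct4-GFP and for Lacz, and labelled pluripotent. The ESC samples were 2 arrays of strain C57BL6, also labelled pluripotent, with no transgene given. The other groups were 3 clonal gPS OG2 lines (C57BL6, Oct4-GFP transgenic) and 3 lines each of the germline stem cells (GSC) of both backgrounds, labelled unipotent. They served for the estimate of spread and for levels set beside the comparison. Ages, sex and passage numbers were not given in the sources used here. Strain, transgene and cell origin differed together between gPS OG2-ROSA and ESC, so none of them can be told apart. A replicate mark stands in the titles of the ESC and OG2 samples and not in those of OG2-ROSA, and whatever it marks is also confounded with the group. The series text calls the ESC arrays a duplicate without saying whether technical or biological, and the p-values may then measure a spread that is partly technical.

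Embryonic stem cells keep the potency of the early epiblast through a self-sustaining set of transcription factors, among them Oct4 (encoded by Pou5f1), Sox2, Nanog and Esrrb. Stem cells of the testis are committed to sperm formation, yet cultured ones can give rise to pluripotent lines, which switch on that set and silence germline genes. Genomic imprinting marks some genes by DNA methylation so that only the copy from the father or only the copy from the mother is expressed, and the male germline carries the paternal form of these marks. The same cell state can therefore be reached from sources with different histories, and the comparison asked how the germline-derived lines differed from cells derived from embryos.

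The arrays did not all have the same brightness. The mean signal was 379 and 308 intensity units for lines 1 and 2 and 579.9 for line 3, against 622 and 584 for the ESC arrays. The exact two-sided permutation p for mean signal was 0.2, where 3 against 2 arrays cannot give less than 0.1. Signal over the estimated negative control level was 4.12, 3.67 and 4.77 in the lines and 4.96 and 4.84 in ESC, and between 9638 and 10295 probes were detected on each of the 5 arrays. Levels below are quantile-normalized log2 intensities, so 1 unit is a 2-fold step. Pou5f1, Nanog, Sox2, Zfp42 and Esrrb were detected on all 5 arrays, but of these only Nanog was undetected on all 3 arrays of the OG2-ROSA germline stem cells. Of the germline markers Sohlh1, Dazl and Ddx4, each detected on those 3 germline arrays, Sohlh1 and Dazl were detected on none of the 5 arrays. Ddx4 was detected on 2 of the 3 lines and on both ESC arrays, at 6.59, 4.84 and 6.29 against 6.49 and 6.35.

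Few probes passed the test between the 3 lines and ESC. Of the 10465 probes, 35 were called at a limma adjusted p under 0.05, which is 0.334% of those tested. In gPS OG2-ROSA, 15 probes were higher (0.143%) and 20 lower (0.191%), all with a fitted difference of more than 2-fold and with the 3 lines on one side of both ESC arrays. Such separation held for 30.1% of all tested probes. It was also required of the 24 genes named below for their size, so it is no separate finding for them. The 35 called probes stood for 28 named genes and 4 probes without a symbol. For 7 of the higher probes no signal was detected on either ESC array, and for 14 of the lower ones none was detected on any line, whereas 7 of the 35 were detected on all 5 arrays. Without adjustment 1191 probes (11.4%) had a p under 0.05, 653 of them higher (6.24%) and 538 lower (5.14%). In bulk RNA a lower level from fewer cells of a type and from less RNA per cell cannot be told apart. The count rested on the small number of arrays: it was 4 without ESC array 1, 7 without ESC array 2, 368 without line 3, which kept all 35, and 5 with the ESC arrays averaged into 1. Of the 24 called genes named for their size, Nod1, Slc4a3 and Pmel were called with each of the 5 arrays left out in turn, while 21 lost the call without ESC array 1, 19 without ESC array 2, 6 without line 1, 7 without line 2 and 0 without line 3. With median in place of quantile scaling 26 probes were called, and the share called higher was 26.9% in place of 42.9%, while the median over all tested probes moved from -0.00 to -0.27.

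The largest rise was that of Nod1, which encodes an intracellular sensor of bacterial peptidoglycan. Its level was 9.57, 9.81 and 8.80 on lines 1, 2 and 3 and 5.54 and 5.06 on the ESC arrays. All 3 lines carried a clear signal where neither ESC array gave a detected one, a difference of 4.09 ± 0.34 (log2 ± SE, limma adjusted p = 7.70e-05), or at least 10.1-fold. Slc4a3, which encodes an anion exchanger that swaps chloride for bicarbonate, rose on each of its 3 probes, by 3.59, 3.36 and 2.22. At the first of these the lines read 8.42, 9.37 and 10.18 and the ESC arrays 5.72 and 5.75. Line 1 was the lowest of the lines and still stood far above both ESC arrays, which gave no detected signal (at least 9.61-fold higher, adjusted p = 0.00119). The gPS OG2 lines, on the other background, had 10.62, 9.77 and 9.61 for Nod1 and 10.76, 10.38 and 10.52 for Slc4a3. Neither gene differed between the gPS lines of both backgrounds past the threshold (gPS OG2-ROSA minus gPS OG2 of -0.61 ± 0.30, adjusted p = 0.446, and -1.23 ± 0.34, adjusted p = 0.198). In the OG2-ROSA germline stem cells the mean levels were 6.05 and 6.16, much nearer to ESC than to the pluripotent lines.

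**Figure D1:**
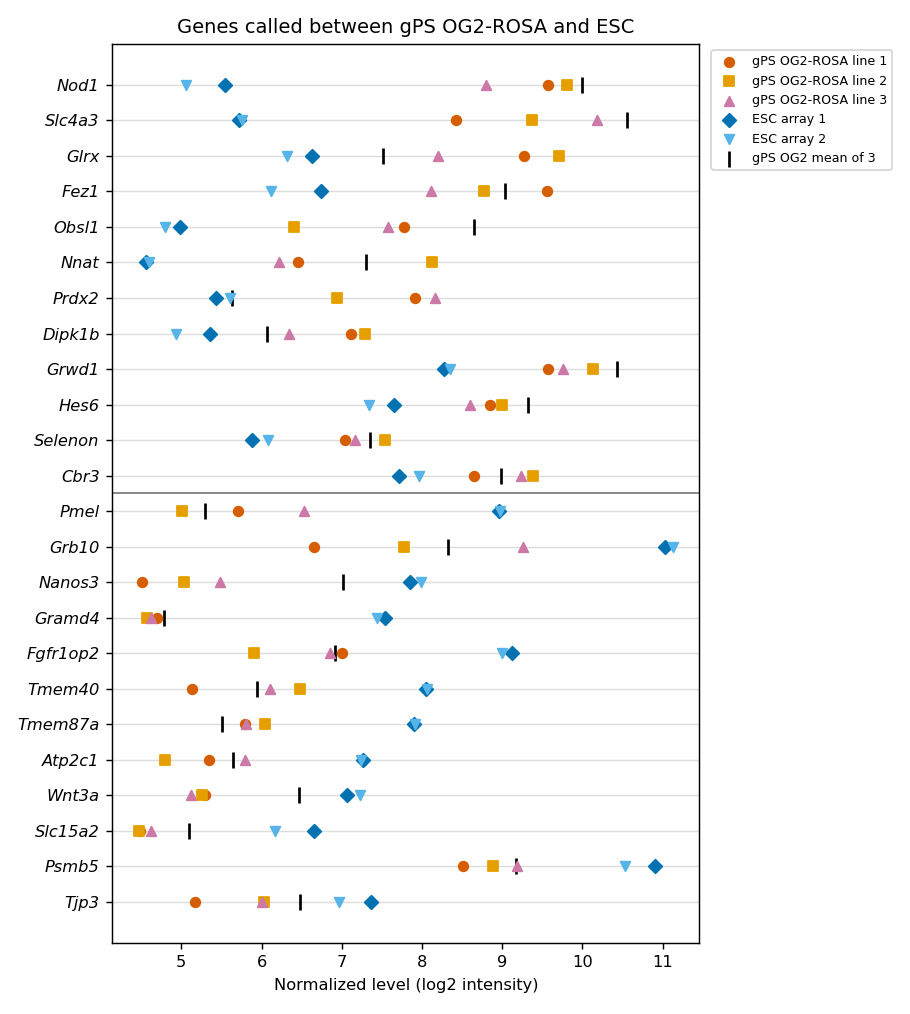
Normalized level (log2 intensity, x axis) of the 24 genes named for the largest called differences, with one symbol per gPS OG2-ROSA line and ESC array and a bar for the mean of the 3 gPS OG2 lines. In the 12 genes above the rule all 3 lines sit to the right of both ESC arrays, from Nod1 (4.09) to Cbr3 (1.25), and in the 12 below it to the left, from Pmel (-3.22) to Tjp3 (-1.43). This separation was a condition for being named.

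Glrx, the glutaredoxin that reverses glutathionylation of proteins, was next in size and read 9.27, 9.71 and 8.20 on the lines and 6.63 and 6.32 on the ESC arrays, a rise of 2.58 ± 0.44 (adjusted p = 0.0226). Its lowest line, line 3, was above the higher ESC array. Cbr3, a carbonyl reductase, had levels of 8.65, 9.38 and 9.23 against 7.71 and 7.96 and rose by 1.25 ± 0.22 (adjusted p = 0.0283), while a second probe gave 1.21 ± 0.30 and was not called (adjusted p = 0.153). Selenon, a selenoprotein of the endoplasmic reticulum, was at 7.04, 7.53 and 7.17 against 5.88 and 6.07 and rose by 1.27 ± 0.23 (adjusted p = 0.0283), with a detected signal on 1 of the ESC arrays. The 3 lines were tightly grouped for Cbr3 and Selenon. For Prdx2, a peroxiredoxin that breaks down hydrogen peroxide, the 3 tested probes disagreed. One probe gave 7.91, 6.94 and 8.16 on the lines and 5.43 and 5.60 on the ESC arrays and was called (at least 3.05-fold, adjusted p = 0.0283). A second gave 2.28 ± 0.49 (adjusted p = 0.0968), and the third, at 12.86, 13.15 and 13.60 against 13.32 and 13.27, gave -0.09 ± 0.26 (adjusted p = 0.913), so the call holds for 1 of the 3 probes.

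The other higher genes had roles of several kinds. Fez1, an adaptor for kinesin transport in axons, was at 9.55, 8.78 and 8.11 on the lines and 6.74 and 6.12 on the ESC arrays. The rise of 2.38 ± 0.35 (adjusted p = 0.00974) was largest in line 1 and smallest in line 3, and a second Fez1 probe gave 1.95 ± 0.40 (adjusted p = 0.071). Hes6, a helix-loop-helix protein that promotes neuronal differentiation, read 8.85, 8.99 and 8.60 against 7.65 and 7.33 and rose by 1.32 ± 0.24 (adjusted p = 0.0283). Its 2 other tested probes gave 0.90 and 0.66 and were not called. Obsl1, a cytoskeletal adaptor related to obscurin, was at 7.77, 6.41 and 7.57 in the lines and undetected at 4.98 and 4.80 in ESC, at least 2.28-fold higher (adjusted p = 0.0204). Line 2 was the lowest line for Obsl1 and still above both ESC arrays. Grwd1, which takes part in ribosome assembly, was at 9.57, 10.14 and 9.76 against 8.27 and 8.35, with a rise of 1.51 ± 0.27 (adjusted p = 0.0283). Its other probe read 10.19, 10.49 and 9.99 against 9.92 and 9.999, where the groups overlapped and the difference of 0.26 ± 0.20 was not called (adjusted p = 0.599). The remaining higher genes, undetected on both ESC arrays at the called probe, were Dipk1b (at least 1.81-fold, adjusted p = 0.0141) and Car5b, a mitochondrial carbonic anhydrase (at least 1.23-fold, adjusted p = 0.0283). A second Dipk1b probe read 8.19, 8.30 and 7.44 against 7.15 and 6.78 and was not called (adjusted p = 0.162).

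Among the lower genes, Pmel had the largest difference of those with a usual symbol. It encodes the protein of the fibrils inside melanosomes and is known as a pigment cell gene. One of its probes read 5.71, 5.003 and 6.53 on the lines and 8.96 and 8.97 on the ESC arrays, and of the lines only line 3 had a detected signal. The difference was -3.22 ± 0.35 (adjusted p = 0.00125), and a second probe fell by 2.53 on the log2 scale. The gPS OG2 lines had 5.58, 5.11 and 5.18 at the first probe, and no difference between the backgrounds was called (0.46 ± 0.32, adjusted p = 0.562). Germline stem cells had means of 5.14 (OG2-ROSA) and 5.04 (OG2) there, so the ESC arrays stood above every other group. Nanos3, an RNA-binding protein that keeps primordial germ cells alive, read 4.50, 5.03 and 5.48 on the lines, undetected on each, against 7.85 and 7.99 on the ESC arrays. It fell by 2.92 ± 0.44 on the log2 scale (adjusted p = 0.00977), at least 3.60-fold. In the gPS OG2 lines Nanos3 stood at 6.68, 6.55 and 7.79, between both groups, and gPS OG2-ROSA minus gPS OG2 was -2.01 ± 0.39 with an adjusted p of 0.0506, which did not pass the threshold. The mean was 8.47 in the OG2-ROSA and 8.56 in the OG2 germline stem cells.

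Psmb5, the catalytic subunit that gives the proteasome its chymotrypsin-like activity, was also lower. Its levels were 8.51, 8.88 and 9.19 on the lines and 10.91 and 10.53 on the ESC arrays, a fall of 1.86 ± 0.24 (log2, adjusted p = 0.00346). The gPS OG2 lines had 9.04, 9.28 and 9.21. The mean was 8.48 in the OG2-ROSA and 8.51 in the OG2 germline stem cells, so the ESC arrays stood above every other group. The signal was detected on all 5 arrays. Wnt3a, a ligand of the canonical Wnt pathway, was undetected in the lines at 5.30, 5.25 and 5.12 and stood at 7.06 and 7.22 in ESC, at least 2.10-fold lower (adjusted p = 0.0283). Slc15a2, a carrier of small peptides, was undetected at 4.49, 4.47 and 4.63 against 6.66 and 6.16, at least 1.27-fold lower (adjusted p = 0.00241). Atp2c1, the calcium pump of the Golgi, was undetected at 5.35, 4.80 and 5.79 against 7.26 and 7.24, at least 2.27-fold lower (adjusted p = 0.0141). A second Atp2c1 probe did not follow the first: it gave 0.08 ± 0.29 and was not called. Fgfr1op2 fell by 2.47 on the log2 scale at the called probe, detected on 2 of the lines, whereas its other tested probe, detected on all 5 arrays, gave -0.02 ± 0.46 (adjusted p = 0.992). Tmem40, detected on 1 line, fell by 2.15. The other named lower genes were undetected on all 3 lines, so only a bound on their fold is given. It was at least 2.67-fold for Gramd4, 3.56-fold for Tmem87a, 2.13-fold for Tjp3, a scaffold of tight junctions, 1.57-fold for Trim67 and 1.23-fold for the autophagy protease gene Atg4b. 1700123O20Rik was at least 5.61-fold lower at one probe, and its other probe, detected on all 5 arrays, gave -0.48 ± 0.18 (adjusted p = 0.37). The other Tjp3 probe gave -0.70 ± 0.35 (adjusted p = 0.466). At the called probes the OG2-ROSA germline stem cells had means of 4.88 for Gramd4, 5.19 for Atp2c1, 4.93 for Tmem40 and 5.22 for 1700123O20Rik. These were near or below the lines, so ESC was the high group. Their mean was between the lines and ESC for Fgfr1op2 (7.91), Tmem87a (6.57) and Grb10 (8.69), and above ESC for Nanos3. Beside their called probes, the genes called in either direction had 12 other tested probes in 10 genes, which by definition were not called. Of these 12, 10 had the sign of the called probe and 2 the opposite sign.

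Imprinted genes gave a call in each parental class, in opposite directions. Of the 13 tested genes expressed from the paternal copy, 1 rose, none fell and 12 did not pass the test. Of the 10 expressed from the maternal copy, 1 fell, none rose and 9 did not pass it. Over all tested probes 0.143% were called higher and 0.191% lower. The median log2 difference was 0.35 in the paternal list and -0.53 in the maternal list, against -0.00 over all tested probes. All 3 lines stood above both ESC arrays for 6 of the 13 paternally expressed genes, and for none of them below. For the maternally expressed genes the counts were 0 above and 5 of 10 below. Over all tested probes 30.1% were separated in this way, 15.8% above and 14.3% below. These lists were chosen with earlier results of the same arrays known, so the counts are a description. With median scaling the medians were 0.05 and -0.76, against -0.27 over all tested probes.

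The paternal call was Nnat, which encodes neuronatin, a small membrane protein. The lines read 6.45, 8.12 and 6.22 and the ESC arrays 4.55 and 4.59, both without a detected signal. The rise was 2.35 ± 0.43 (adjusted p = 0.0344), at least 1.83-fold, and line 2 stood well above the other lines. Snrpn, a splicing protein gene of the Prader-Willi region, had the most even difference of the list at its brightest probe: 13.41, 13.43 and 13.45 on the lines against 12.63 and 12.75 on the ESC arrays. Its difference of 0.75 ± 0.21 was not called (adjusted p = 0.211), although the groups did not overlap. A second Snrpn probe was less even, at 8.10, 8.83 and 9.03 against 7.46 and 7.67, and was not called (1.09 ± 0.31, adjusted p = 0.226). The other separated members of the list were Peg10 (0.86 ± 0.33, adjusted p = 0.37), Inpp5f (0.53 ± 0.33, adjusted p = 0.535), Ndn (0.48 ± 0.33, adjusted p = 0.57) and Ddc (0.35 ± 0.27, adjusted p = 0.608). Peg3 and Igf2, the growth factor gene, were not separated: relative to the ESC mean their lines stood at -1.04, 1.63 and 0.62 and at -0.65, -0.89 and 0.89.

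The maternal call was Grb10, an adaptor that restrains signals from the insulin and IGF1 receptors and is expressed from the maternal copy in most tissues. Its levels were 6.65, 7.77 and 9.26 on the lines and 11.02 and 11.12 on the ESC arrays. Line 3 was the nearest to ESC and line 1 the farthest, and all 5 arrays detected the gene. The fall was 3.18 ± 0.54 (log2, adjusted p = 0.0231), and the gPS OG2 lines had 8.65, 7.92 and 8.40. Phlda2, which restrains placental growth, differed by -1.48 ± 0.64 (adjusted p = 0.41) and Cdkn1c, an inhibitor of the cell cycle, by -0.81 ± 0.39 (adjusted p = 0.446). Atp10a (-0.72 ± 0.36, adjusted p = 0.464) and Igf2r, the receptor that clears IGF2 (-0.51 ± 0.23, adjusted p = 0.43), were the other separated members. None of these 4 was called. H19 and Meg3 had no probe named for them, and Dlk1 was detected on too few of the 5 arrays to be tested. In gPS OG2 minus ESC, which uses the same ESC arrays, the list medians were 0.66 and -0.12.

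**Figure D2:**
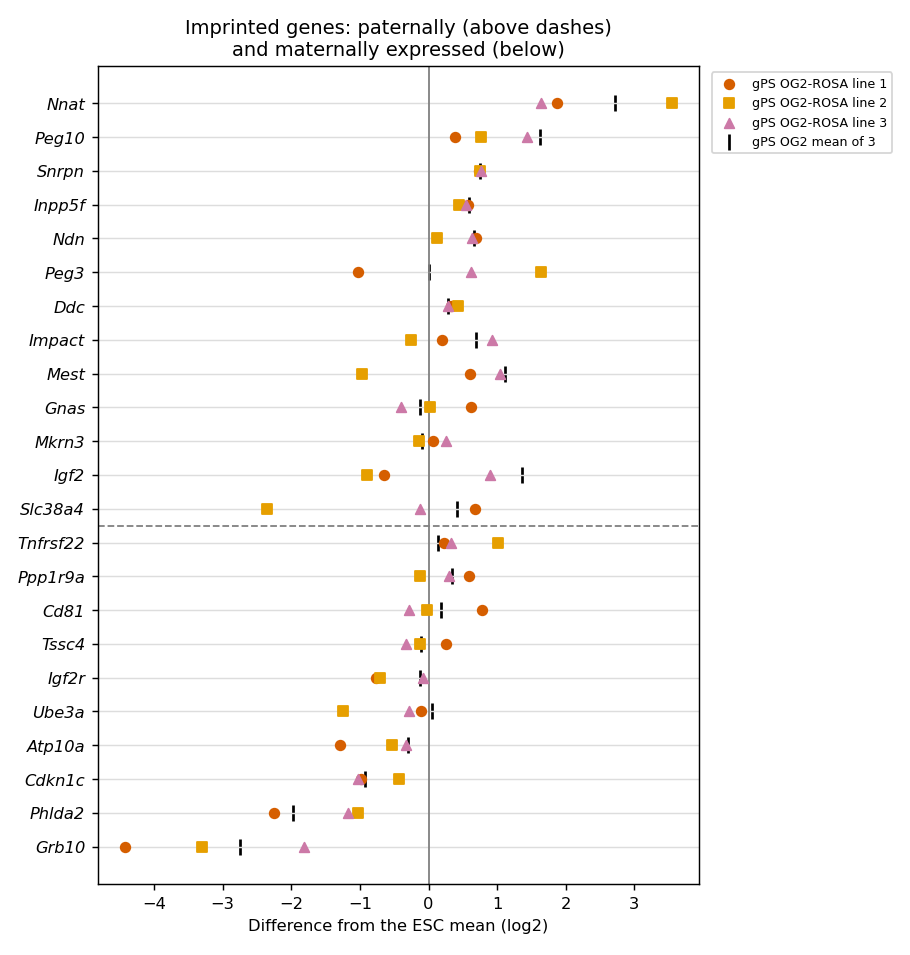
Difference of each gPS OG2-ROSA line from the mean of the ESC arrays (log2, x axis) for the tested imprinted genes, paternally expressed above the dashed line and maternally expressed below it, with a bar for the gPS OG2 mean. Nnat lies farthest to the right (1.88, 3.55 and 1.64 for lines 1 to 3) and Grb10 farthest to the left (-4.42, -3.30 and -1.81), while genes such as Peg3 and Slc38a4 have lines on both sides of 0.

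The promoters of both called imprinted genes are shown because imprints lie in CG dinucleotides, printed in capitals. No methylation was measured on these arrays. The sequences are those of RefSeq on GRCm38.p6, 300 bases around an annotated start, most of them upstream, in the direction of transcription. Nnat has 1 such window, at chr2:157559828-157560127 on the plus strand, and Grb10 has 2 on the minus strand, at chr11:12037371-12037670 and chr11:12027922-12028221.
Nnat: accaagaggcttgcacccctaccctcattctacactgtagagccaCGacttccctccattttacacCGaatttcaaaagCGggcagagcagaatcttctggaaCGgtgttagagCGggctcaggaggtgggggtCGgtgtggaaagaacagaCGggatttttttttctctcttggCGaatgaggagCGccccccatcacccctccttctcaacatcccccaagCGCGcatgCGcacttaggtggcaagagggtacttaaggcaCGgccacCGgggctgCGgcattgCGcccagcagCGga
Grb10, first start: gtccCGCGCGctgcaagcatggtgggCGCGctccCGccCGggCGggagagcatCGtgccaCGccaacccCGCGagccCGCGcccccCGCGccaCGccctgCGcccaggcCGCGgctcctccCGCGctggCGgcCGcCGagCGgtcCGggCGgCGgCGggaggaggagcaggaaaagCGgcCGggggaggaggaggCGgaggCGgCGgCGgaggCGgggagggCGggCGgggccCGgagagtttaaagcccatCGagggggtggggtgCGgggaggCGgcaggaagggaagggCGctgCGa
Grb10, second start: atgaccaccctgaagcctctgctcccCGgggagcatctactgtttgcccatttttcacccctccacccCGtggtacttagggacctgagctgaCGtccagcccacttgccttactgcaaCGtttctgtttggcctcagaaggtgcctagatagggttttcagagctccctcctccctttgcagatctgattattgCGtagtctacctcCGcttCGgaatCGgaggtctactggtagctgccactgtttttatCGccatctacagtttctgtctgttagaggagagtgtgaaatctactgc
The windows hold 17, 45 and 9 CG dinucleotides, a pair that reads the same on both strands. Of 32851 RefSeq promoter windows of the same length, 31.4% have at least as many as the Nnat window. The share is 1.93% for the first Grb10 window and 45.8% for the second, and the median window has 7. Whether any of these windows holds an imprint was not tested.

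The pluripotency network showed no call in either direction. None of its 30 tested genes passed the test, where 0.334% of all tested probes did, so few calls were to be had in any list of this size. The median log2 difference was 0.05, and 27 of the 30 were detected on all 5 arrays. All 3 lines were above both ESC arrays for 7 of the 30 and below for 4, beside 15.8% and 14.3% of all tested probes. Pou5f1 read 13.18, 13.07 and 12.97 on the lines and 13.04 and 12.84 on the ESC arrays, and Nanog 11.94, 11.07 and 11.60 against 11.69 and 11.75. The ranges of both groups overlapped at these probes. At a second Pou5f1 probe the lines read 12.82, 13.11 and 12.56, all above the ESC arrays at 12.44 and 12.40, with a difference of 0.41 ± 0.89 that was not called (adjusted p = 0.876). The difference was 0.13 ± 0.94 for Pou5f1, -0.18 ± 0.23 for Nanog, 0.04 ± 0.35 for Esrrb and 0.04 ± 0.29 for Zfp42, with adjusted p of 0.968, 0.763, 0.9747 and 0.967 in this order. The error of Pou5f1 is wide beside the spread of its 5 values, since the fit shares its spread with the GSC OG2 arrays, where the level ran from 6.94 to 12.04. A p above the threshold does not show that levels were equal. With median scaling the list median was -0.25, close to the -0.27 of all tested probes. For Nanog, whose error was smaller, the 95% interval of the difference was -0.68 to 0.31.

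Some members of the network differed between lines more than between groups. Dppa3, also known as Stella, which protects the maternal genome from demethylation in the zygote, was at 5.34, 9.28 and 11.21 in lines 1, 2 and 3 and at 10.45 and 10.53 on the ESC arrays. Line 1 was near background, line 2 about 1 unit below ESC and line 3 above it, so the mean difference of -1.88 ± 1.16 (adjusted p = 0.533) describes no single line. Gbx2, a homeobox gene of naive pluripotency, read 12.24, 12.88 and 9.89 against 9.69 and 9.66: lines 1 and 2 were high and line 3 was near ESC (2.00 ± 0.75, adjusted p = 0.369). Myc was above both ESC arrays in all lines, at 6.71, 7.26 and 6.34 against 5.93 and 5.25, and was not called (1.18 ± 0.32, adjusted p = 0.203). Without line 3 it was called (1.40, adjusted p = 0.0413). Klf4 gave 0.16 ± 0.46 at its brightest probe, where the groups overlapped (adjusted p = 0.910). At its other tested probes it gave 1.23 ± 0.46 and 1.40 ± 0.45, with all lines above both ESC arrays, and was not called (adjusted p = 0.369 and 0.297). The 2 Sox2 probes disagreed on line 2, at 5.94 for one and 10.55 for the other, while lines 1 and 3 and the ESC arrays were between 9.65 and 10.34 at both.

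**Figure D3:**
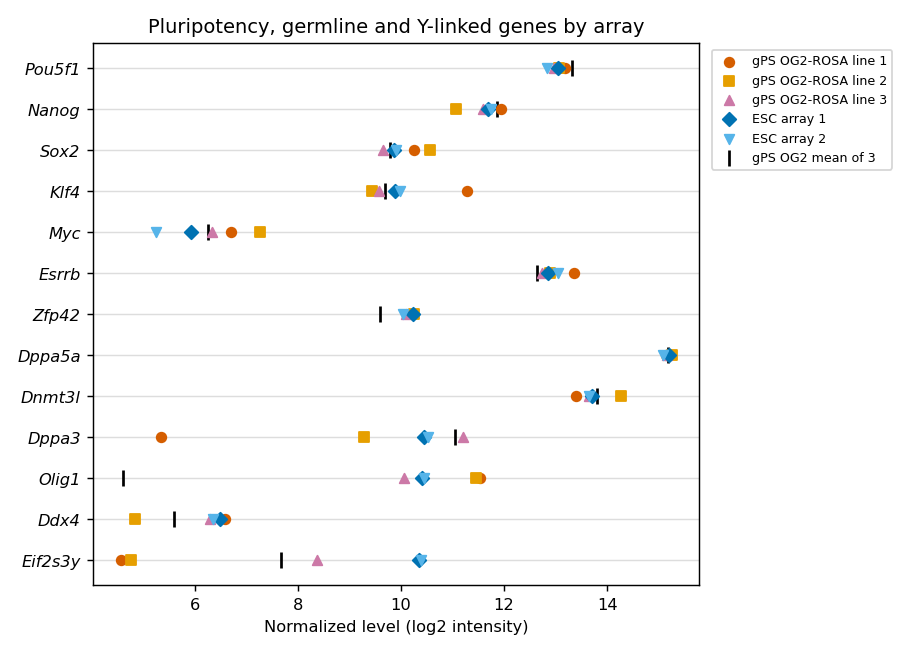
Normalized level (log2 intensity, x axis) of genes of the pluripotent state and of the germline, with a Y-linked gene, at the brightest probe of each gene, by gPS OG2-ROSA line and ESC array, with a bar for the gPS OG2 mean. Pou5f1, Nanog, Esrrb, Zfp42 and Dppa5a are bunched within each row, whereas Dppa3 runs from 5.34 on line 1 to 11.21 on line 3.

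Of the 26 gene lists, 22 held no called member. The 4 with one were the imprinted lists, the spermatogonial list and the list of primitive streak and mesoderm. In the spermatogonial list Nanos3 fell and 15 of 16 genes did not pass the test, with a median of 0.04. In the streak and mesoderm list Wnt3a fell and 4 of 5 genes did not pass the test. The median of that list was 0.79, with 0.20, 1.64 and 0.39 on lines 1, 2 and 3. All 3 lines were above both ESC arrays for 2 of its 5 genes and below for 1. Over all tested probes 0.191% were called lower and 0.143% higher. Among the lists without a call, targets of p53, the factor that answers DNA damage, had a median of 0.35 over 13 tested genes, with 0.46, 0.64 and 0.21 on lines 1, 2 and 3. All 3 lines were above both ESC arrays for 6 of the 13 and below for none, where 15.8% of all tested probes were above and 14.3% below, and with median scaling the median was 0.06. Phlda3, a brake on Akt signalling, was the largest of them, at 9.14, 10.73 and 8.95 against 8.35 and 7.90 (1.48 ± 0.48, adjusted p = 0.309). Cytosolic ribosomal proteins had a median of -0.21 over 43 genes, with 10 of the 43 below ESC in all lines and 0 above, beside the same 14.3% and 15.8% of all tested probes. Trophoblast genes had a median of -0.72 over 6 genes, 4 of them below in all lines and 1 above, beside the same 14.3% and 15.8%. In gPS OG2 minus ESC the median was 0.12. Only these 6 of the 19 listed genes were tested, and Cdx2, Eomes, Elf5 and Hand1 were detected on too few arrays. Of the 6, the transcription factor gene Tfap2c read 9.64, 10.63 and 11.73 against 12.14 and 11.91, where line 3 was close to ESC (-1.36 ± 0.59, adjusted p = 0.417). Krt42 differed by -1.21 ± 0.31 (adjusted p = 0.162).

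In other lists the lines differed from each other. Glycolysis and glucose uptake had medians of 0.74, -0.04 and -0.14 on lines 1, 2 and 3 relative to the ESC mean, and the hypoxia response 0.84, -0.87 and -0.35. Both medians were thus above 0 on line 1 alone, and Egln3, the oxygen sensor induced by hypoxia, was at 11.11, 7.96 and 8.36 against 8.97 and 9.07. Heat shock and unfolded protein response genes had medians of 0.15, -1.04 and -0.31, lowest on line 2, where the chaperone Hspa5 was at 5.60 against 9.39 and 9.53 in ESC. Fibroblast and feeder cell markers, which would show cells other than the stem cells in a culture, had medians of -0.57, 0.17 and 1.21. Their mean level over 17 tested genes was 7.25, 8.39 and 8.84 on the lines and 7.79 and 7.70 on the ESC arrays. The lines thus lay on both sides of ESC, and the part of such cells in any result was not tested. Vim, the intermediate filament gene vimentin, was the member nearest to a call, at 10.42, 11.34 and 10.24 against 9.07 and 8.98 (1.64 ± 0.34, adjusted p = 0.0834).

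**Figure D4:**
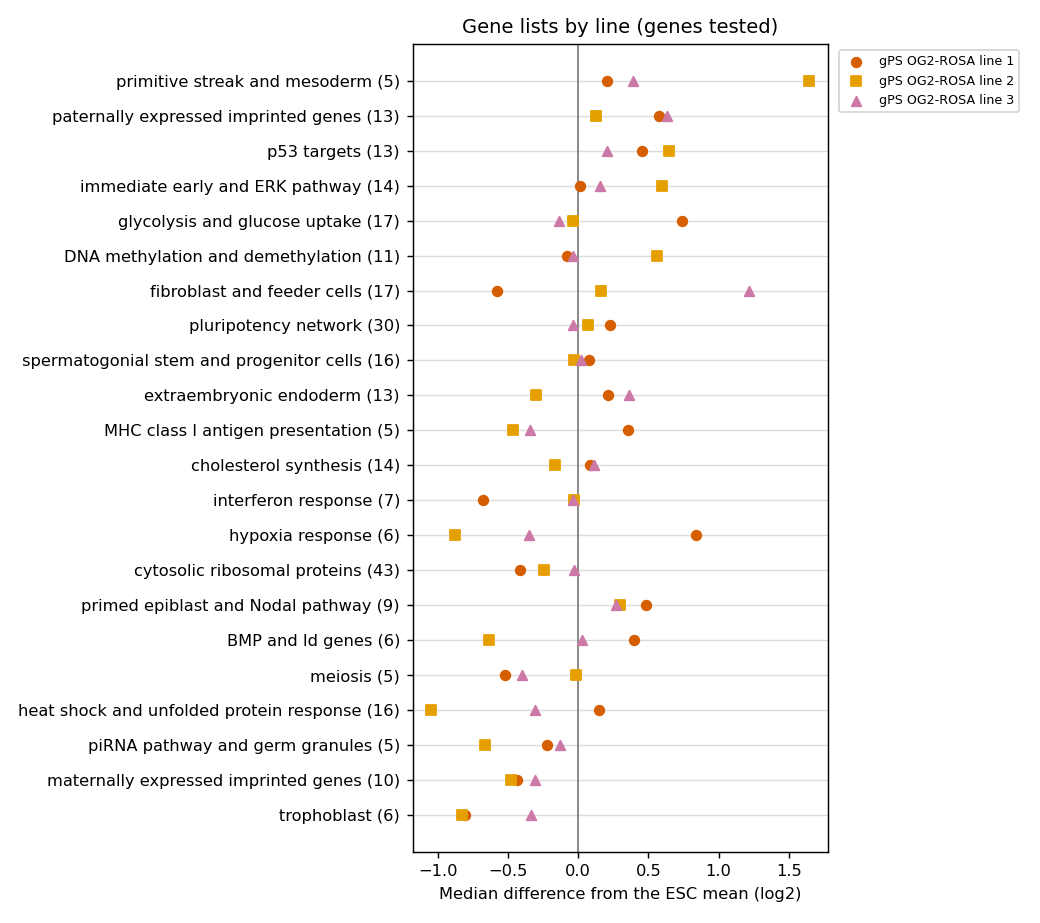
Median log2 difference from the mean of the ESC arrays (x axis) for the lists with 5 or more tested genes, with one symbol per gPS OG2-ROSA line and the number of tested genes in brackets. The pluripotency list lies near 0 in every line (0.23, 0.07 and -0.04), while fibroblast markers spread from -0.57 to 1.21.

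The Y-linked gene Eif2s3y, a translation initiation subunit, had the most negative difference of all tested probes and was not called. It read 4.57, 4.77 and 8.37 on the lines and 10.35 and 10.39 on the ESC arrays. Lines 1 and 2 were at background and line 3 was in between (-4.47 ± 1.15, adjusted p = 0.169), and without line 3 the gene was called (-5.70, adjusted p = 0.0127). The gPS OG2 lines were as uneven, at 10.34, 6.87 and 5.79, whereas the OG2-ROSA germline stem cells were at 10.33, 10.01 and 10.07. Uty, the other tested Y-linked gene, differed by -0.77 ± 0.26 (adjusted p = 0.325), and Xist was detected on too few of the 5 arrays to be tested.

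Whether a difference from ESC depended on the background was tested directly between the gPS lines of both backgrounds. Of the 10465 probes, 30 were called (0.287%), 25 higher in gPS OG2-ROSA (0.239%) and 5 lower (0.0478%). All 35 probes called against ESC had the same direction in gPS OG2 minus ESC, and 26 were also called there. That comparison uses the same ESC arrays, so the 2 are not independent. Of the 35 probes called against ESC, 1 was also called between the backgrounds in the same direction, the Prdx2 probe named above. It read 7.91, 6.94 and 8.16 in gPS OG2-ROSA and 5.12, 5.49 and 6.29 in gPS OG2, without overlap (2.03 ± 0.35, adjusted p = 0.0297). The third Prdx2 probe gave 0.13 ± 0.24 between the backgrounds and was not called (adjusted p = 0.832). Olig1, a helix-loop-helix gene of the oligodendrocyte lineage, was at 11.53, 11.46 and 10.06 in gPS OG2-ROSA and at 10.41 and 10.45 in ESC, with a difference of 0.59 ± 0.34 that was not called (adjusted p = 0.518), although it was without line 3 (1.07, adjusted p = 0.0176). In the gPS OG2 lines it was near background at 4.52, 4.66 and 4.64, and the difference between backgrounds was 6.41 ± 0.31 (adjusted p = 1.73e-07). Tdgf1, the Nodal co-receptor Cripto, was likewise at background in gPS OG2 (4.60, 5.06 and 4.66) and at 10.61, 6.88 and 8.88 in gPS OG2-ROSA. The ESC arrays had 9.17 and 9.02 for Tdgf1, within the range of the OG2-ROSA lines. Id2, an inhibitor of helix-loop-helix factors, was lower in gPS OG2-ROSA than in gPS OG2 by 2.25 ± 0.37 (log2, adjusted p = 0.0288), with lines at 7.39, 6.35 and 7.72 and ESC at 7.72 and 7.73. With median scaling 4 probes were called between the backgrounds.

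The 3 lines were far from alike. Relative to the ESC mean, 917 probes (8.76%) of line 1 differed by 2-fold or more, 2241 (21.4%) of line 2 and 344 (3.29%) of line 3. The ESC arrays differed from each other by that much at 30 probes, and at 0 of the 8293 probes detected on all 5 arrays. Among those 8293 the counts were 573 for line 1, 1269 for line 2 and 129 for line 3, in the same order. Across probes the correlation with the ESC mean was 0.950 for line 1, 0.895 for line 2 and 0.977 for line 3, while between lines it was 0.904 to 0.939. Line 3 was thus nearer to ESC than to either of the other lines on this measure. All of these arrays share the quantile normalization, and probes are not independent replicates. In all, 64 probes (0.612%) were past 2-fold in the same direction in all 3 lines, 33 higher and 31 lower. The counts were higher the dimmer the array, with mean signals of 308 for line 2, 379 for line 1 and 579.9 for line 3, and the part of brightness was not tested. Each line had 1 array, so a property of the line and of its array cannot be told apart.

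**Figure D5:**
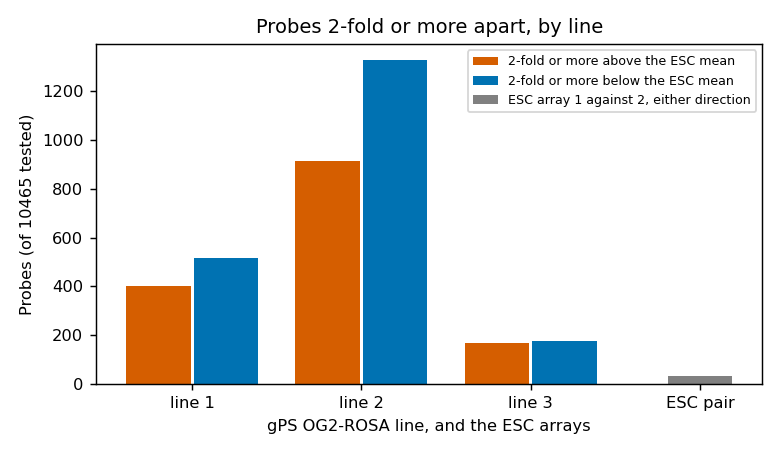
Number of tested probes (y axis) 2-fold or more above or below the mean of the ESC arrays for each gPS OG2-ROSA line, with the number 2-fold or more apart between the ESC arrays in grey. Line 2 has the most in each direction (913 above, 1328 below), line 3 the fewest (167 and 177), and the ESC pair 30 in all.

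Single lines stood out at named genes, given here as values with no test because each line is 1 array. Line 1 alone was high for Egln3, Dpysl4 and Pde8a. Line 1 was also the highest for Gpr83, where line 2 stood above both ESC arrays too (8.92, 7.16 and 5.07 on lines 1, 2 and 3, ESC 6.15 and 6.44). Line 1 was the highest as well at 1 of 2 probes of Pmaip1, the p53 target that encodes Noxa (9.44, 6.84 and 7.28 on lines 1, 2 and 3, ESC 6.82 and 6.98). The other Pmaip1 probe read 9.51, 8.71 and 7.60 against 7.50 and 7.29, with line 2 also high and all 3 lines above both ESC arrays. Line 1 was low for Dppa3, Acta2, Mgp and S100a6, and for Cdkn2a, the locus of the cell cycle inhibitors p16 and p19, at 4.84, 8.13 and 7.90 against 7.19 and 7.28. S100a6, a calcium-binding protein, was at 6.98, 10.17 and 10.48 against 9.80 and 9.84, on line 1 far below the other 4 arrays. Line 2 was high for Txnip, which restrains glucose uptake (6.06, 9.05 and 5.50, ESC 6.33 and 5.94), and for its relative Arrdc4 (7.93, 10.19 and 8.04, ESC 7.89 and 7.87). Gpnmb, Mgp and the collagenase gene Mmp2 were high on line 2 as well. Line 2 was low at 1 probe each of Sox2, Stmn1, Ist1, Nit2 and Slc3a2, where the other 4 arrays were close to each other. The other tested probe of Nit2 read 10.001, 9.72 and 10.12 against 9.78 and 9.88, with no such gap on line 2. For Stmn1, a regulator of microtubules, the values were 11.51, 7.64 and 11.59 against 12.05 and 12.06.

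Line 3 alone was high for Col3a1, Thbs2, Thy1, Ptn and Tmem176b. Col3a1, a fibrillar collagen, was at 4.92, 5.55 and 7.93 on lines 1, 2 and 3 and 5.97 and 6.06 on the ESC arrays, and Thbs2, a matrix thrombospondin, at 5.85, 7.10 and 9.45 against 7.85 and 7.77. Thy1, a surface protein of fibroblasts and of spermatogonia, read 7.65, 7.36 and 10.38 against 8.64 and 8.91. In each of these, lines 1 and 2 were below both ESC arrays and line 3 was above them. Ptn (5.97, 6.23 and 9.37, ESC 7.31 and 7.40) and Tmem176b (4.85, 5.70 and 7.89, ESC 6.43 and 6.17) had the same order. The genes low on line 3 included Lefty2, an inhibitor of Nodal signalling, at 13.70, 12.27 and 9.78 against 12.32 and 12.31. Mapt, which encodes the microtubule protein tau, was at 7.88, 7.69 and 5.26 against 7.68 and 7.57, and Notch4, Atp2a3 and 1 of 2 probes of Rpl21 were the others. At the second Rpl21 probe line 3 was not the lowest array (7.15, 7.14 and 6.44 against 6.67 and 6.29).

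The largest difference of all tested probes was not a call and lay at 1 of 2 probes of Zfp330, a zinc finger gene named here after its values were seen. That probe read 11.40, 11.02 and 11.34 on the lines and 4.77 and 4.57 on the ESC arrays, a fitted difference of 6.59 ± 1.32 (adjusted p = 0.0644). The error is wide beside the standard deviations of 0.21 in the lines and 0.14 in ESC. The fit shares its spread with the gPS OG2 and GSC OG2 arrays, which were uneven at this probe. The other probe read 10.67, 10.60 and 10.79 and 10.94 and 10.81, with a difference of -0.19 ± 0.24 (adjusted p = 0.773). The gene was thus bright on all 5 arrays by 1 probe and undetected in ESC by the other. At the first probe the gPS OG2 lines were at 4.77, 4.54 and 8.22 and the GSC OG2 lines at 6.80, 4.65 and 10.66, so line 3 of each C57BL6 set stood above its other lines, while the OG2-ROSA germline stem cells were at 10.16, 10.58 and 10.65.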

How the data were processed

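RNA of 14 mouse samples was hybridised to 1 Illumina array each, per the labels. The deposited intensity is a linear signal per probe, beside a deposited detection p-value, per the file headers. BeadStudio 3.2, lumi and RMA are listed in the submitters' processing notes, with no step given for any of them. The authors' deposited processed values, on a log2 scale as judged from the values, were an alternative. Intensities were corrected and quantile-normalized with neqc of limma 3.58.1 in R 4.3.3 (offset 16). Tests covered the 10465 probes with a detection p under 0.01 on 2 or more of the 5 arrays compared. The fit (lmFit, eBayes) used 1 mean per group for the 5 groups and all 14 arrays, and adjusted p values are limma's with Benjamini-Hochberg over these probes, called under 0.05. All errors of differences are standard errors. Precision is limited by the number of arrays. A fold written "at least" belongs to a probe with no detected signal in 1 group. It sets the other group's mean level against a floor averaged over the undetected arrays, where an array's floor is its lowest detected level or, if higher, the level of the probe itself. Gene symbols came from the platform annotation, where 1719 of 25697 probes are unlisted, and 23962 were matched to RefSeq by Entrez identifier.

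The members and the 26 lists were chosen with earlier results of these data known. Named were the 12 largest called differences per direction (separated between all arrays, detected on every array of a group), up to 4 called members per list, 25 fixed genes, called or not, of which 16 were tested, the 5 largest gaps per line and direction, and up to 8 genes called in the same direction against both ESC and gPS OG2. Placeholder symbols were passed over. Of several probes of a gene, lists and fixed genes use the brightest over the 5 arrays, which need not be the one that changed most. The other named genes use the probe with the largest difference or gap. The procedure was tested on simulated data. Alternatives covered background correction, scaling, probe filter, arrays in the fit, variance model, array weights, a replicate block and leaving out arrays. No chip or scan date was given in the files, so none was used as a block.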

Additional observations from a re-analysis of the deposited data

Results flagged for a closer look

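Among the named genes and the members of the gene lists, 4 genes differed between the gPS lines of both backgrounds. The test was limma's test of the difference itself, in which the ESC arrays cancel. Over all tested probes it called 30, and the others were not looked at here. The log2 difference of gPS OG2-ROSA minus gPS OG2 was 6.41 for Olig1, 4.01 for Tdgf1 and -2.25 for Id2, 3 genes that were not called between gPS OG2-ROSA and ESC. For Prdx2 it was 2.03 at the probe that was also called against ESC, and 2.33 at a second probe, while the remaining Prdx2 probe gave 0.13 ± 0.24 and was not called (limma adjusted p = 0.832). At each called probe of these 4 genes the 3 lines of one background lay on one side of the 3 lines of the other. The probes were picked by their call on the same arrays, so this separation adds no evidence. Its share over all tested probes was not counted. Strain, transgene and replicate mark differ together between the backgrounds and cannot be told apart.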

How the results depend on the processing

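The direction of each named called gene was the same under every alternative with a value (463 values for 24 genes), but the call was kept in 256 of them and lost in 207, and 0 genes were called under each alternative. The count of 35 probes called against ESC became 22 without background correction, 2 with probes detected on all 5 arrays, 2 with only the 5 arrays in the fit and 4 with only the 8 pluripotent arrays. It was 1 when the 5 arrays were normalized and fitted alone, and that probe was none of the 35. It was 5 with the ESC arrays averaged and 21 with lines 1 and 2 both left out, 15 of them shared. Leaving out 1 array at a time gave 4 to 368. The replicate number as a block gave 22, all among the 35. Across the 10 pairs of groups, the deviations of same-numbered arrays from their group means correlated at -0.192 to 0.0776 over probes, none above 0.1. Differently numbered arrays reached 0.237, between GSC OG2-ROSA and gPS OG2-ROSA. The main fit therefore did not pair arrays by number. With 2 or 3 arrays per group these correlations cannot show whether gPS lines came from particular GSC lines. Between backgrounds the count of 30 became 20 without background correction, 20 with the authors' values and 4 with median scaling, and the alternative on the 5 arrays alone was not run, since it holds no gPS OG2 array. Probes past 2-fold from ESC numbered 470 and 348 for line 1, 1295 and 928 for line 2 and 122 and 81 for line 3 with normexp at offset 50 and without background correction, and 648 for line 3 with the authors' values. With the authors' values 51.4% of 35 calls were higher. For list medians, alternatives were chosen after the data were seen. Median scaling gave -0.25 for pluripotency, 0.054 for paternally and -0.76 for maternally expressed genes, 0.055 for p53 targets and -0.62 for ribosomal proteins, beside -0.27 for all probes. The maternal median was -0.39 with normexp and -0.30 without correction, and the trophoblast median -0.35 without correction. Causes were not tested. Lines 1 and 2 had a signal over the negative controls of 4.12 and 3.67, which limits what their dim probes show.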
